A study of Mus musculus with 6 samples.

Results

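The TNF superfamily ligands are cytokines that T cells carry on their surface or release to signal to neighbouring cells. RNA-Seq counts of 9 of these genes (*Tnf*, *Lta*, *Ltb*, *Fasl*, *Cd40lg*, *Tnfsf8*, *Tnfsf10*, *Tnfsf11* and *Tnfsf14*) were compared in mouse CD4+ T cells. The 9 genes were taken by symbol from the 24223 genes counted in each library, and all 9 were among the 13607 genes with enough counts to be tested. The study followed CD4+ T cells from the non-activated state (Naive) into helper cultures of the Th17 and Th1 types, with 2 biological replicates each and 6 libraries in all. Every group came from C57BL/6 mice of 1 to 2 months, whose lymph nodes and spleens were pooled before CD44- naive cells were isolated with a magnetic CD4+CD62L+ kit. Naive libraries were made from these cells without stimulation. Both culture types received anti-CD3 and anti-CD28, as antibodies or on beads, and were collected on day 5. Th1 cultures also received IL-12, IL-2 and antibody against IL-4, and Th17 cultures received TGF-β, IL-6, IL-1β, IL-23 and antibodies against IL-4 and IFN-γ. Stimulation and the polarizing cytokines therefore change together in each comparison with Naive, and their parts cannot be told apart.

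TNF superfamily ligands are made as trimers, mostly as membrane proteins with the receptor-binding end outside the cell, and some are cut off by proteases and act in solution. Their receptors either recruit TRAF adaptor proteins, which activate NF-κB and promote survival and activation, or carry a death domain that can start apoptosis. Helper T cells use these ligands to license B cells and dendritic cells, to organize lymphoid tissue, and to kill or restrain other lymphocytes.

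The libraries held 17742158 to 69080017 counts. Replicate 1 was the deeper library in every group, so the limit that 3 counts set lay between 0.0440 and 0.190 CPM (counts per 1000000 counts of the library, scaled with TMM factors). All 6 T cell markers of the list (*Cd3d*, *Cd3e*, *Cd3g*, *Cd4*, *Cd5* and *Lck*) were above that limit in every library, and their summed level was 2620 to 3404 CPM in Naive, 2537 to 3241 CPM in Th17 and 2707 to 3699 CPM in Th1. Markers of other cells moved with the groups. The 8 neutrophil genes summed to 189 to 310 CPM in Naive, 2778 to 2882 CPM in Th17 and 27.4 to 39.4 CPM in Th1. Above the limit were 7 and 2 of them in the Naive libraries, all 8 in both Th17 libraries and 7 in both Th1 libraries. *Mpo* was highest in Naive, at 251 and 159 CPM, against 68.1 and 58.7 CPM in Th17 and 6.76 and 7.52 CPM in Th1. *Elane* overlapped between Naive and Th17, and the other 6 were higher in Th17 than in Naive. The 6 counted macrophage and monocyte genes summed to 17.9 to 36.9, 238 to 793 and 14.7 to 16.1 CPM in the same order, the 6 mast cell and basophil genes to 11.98 to 44.1, 207 to 423 and 42.9 to 55.9 CPM, and the 5 platelet and megakaryocyte genes to 4.75 to 20.9, 266 to 469 and 33.6 to 73.2 CPM. The 5 NK cell genes summed to 11.8 to 19.8, 4.44 to 7.47 and 0.190 to 1.14 CPM, the 5 B cell genes to 6.54 to 10.6, 11.8 to 15.8 and 2.41 to 2.97 CPM, and the 5 dendritic cell genes to 4.46 to 16.3, 6.63 to 29.99 and 6.39 to 6.70 CPM. The 2 CD8 genes summed to between 5.66 and 11.3 CPM in every library, and the 8 erythroid genes reached 12.9 CPM at most, with 6 of them at 0 throughout.

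*Fasl* and *Tnfsf14* were the ligand genes that differed most between the Th cultures, in opposite directions. Their proximal promoters are shown with any matches to 2 motifs of T cell activation factors marked. The sequences are from RefSeq on GRCm38.p6, cover 250 bases ending just before the annotated start, and are written 5′ to 3′ on the minus strand, which both genes use. Capitals mark the core letters of NFAT (GGAAA, on either strand) and the AP-1 letters (TGANTCA, on either strand). The *Fasl* sequence lies at chr1:161788496-161788745 and the *Tnfsf14* sequence at chr17:57194182-57194431.
Fasl: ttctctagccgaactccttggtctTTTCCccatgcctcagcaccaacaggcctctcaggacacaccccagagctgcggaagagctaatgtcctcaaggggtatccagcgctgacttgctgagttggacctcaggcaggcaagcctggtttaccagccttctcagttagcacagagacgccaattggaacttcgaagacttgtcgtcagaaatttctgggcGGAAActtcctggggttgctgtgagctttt
Tnfsf14: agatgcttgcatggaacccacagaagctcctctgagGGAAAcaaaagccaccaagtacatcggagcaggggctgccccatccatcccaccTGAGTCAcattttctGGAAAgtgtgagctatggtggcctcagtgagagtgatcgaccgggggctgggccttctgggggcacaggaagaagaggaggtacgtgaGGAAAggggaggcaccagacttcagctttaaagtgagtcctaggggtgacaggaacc
The *Fasl* stretch holds 2 NFAT cores and no AP-1 match, and the *Tnfsf14* stretch holds 3 NFAT cores and 1 AP-1 match.

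In windows of 300 bases, which add 50 bases after the start, promoters were found for 8 of the 9 ligand genes, with *Cd40lg* missing. The NFAT core occurred in all 8 windows, and it occurs in 61.3% of the 32851 promoters of this length. The AP-1 letters occurred only in the *Tnfsf14* window, against 7.81% of all promoters. *Tnfsf14* was also the only window with the Runx letters TGTGGT, which 16.8% of promoters hold, and *Ltb* the only window with a kappa-B match, which 4.51% hold and which overlaps the NFAT core there. The T-box letters GGTGTGA, present in 3.98% of promoters, were in none of the 8 windows. A match of letters is a description of the sequence and does not show that a factor binds.

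Between genes, levels were compared as CPM per kilobase of exon, since the exons of the ligand genes span 1250 bases (*Cd40lg*) to 5266 bases (*Tnfsf10*). *Ltb*, which encodes the membrane-anchoring subunit of the lymphotoxin heterotrimer, ranked first in all 6 libraries. Its mean level was 538.0 CPM per kilobase ± 4.55 in Naive, 944.9 ± 229 in Th17 and 822.5 ± 178 in Th1 (SD, n = 2 each). On average *Ltb* made up 85.3% of the summed ligand level in Naive, 89.7% in Th17 and 87.1% in Th1.

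With *Ltb* set aside, the other 8 genes together summed to 81.0 and 105.5 CPM per kilobase in the Naive libraries. The sums were 105.6 and 106.5 in the Th17 libraries and 134.2 and 101.8 in the Th1 libraries. The summed level in Th1 thus overlapped with that in Naive and in Th17. The lower Th17 sum (105.6) was nearly equal to the higher Naive sum (105.5). The make-up of this remainder differed more than its sum. *Cd40lg* was its leading gene in both Naive libraries, with a mean share of 40.7%. In both Th17 libraries the leading gene was *Tnfsf8*, whose mean share was 23.3% against 6.31% in Naive and 14.6% in Th1. *Fasl* took 14.2% of the remainder in Th1, 4.24% in Naive and 0.846% in Th17, whereas *Tnfsf14* took 1.60% in Th1, 12.5% in Naive and 11.0% in Th17. The leading gene differed between the Th1 libraries, being *Tnf* in replicate 1 and *Cd40lg* in replicate 2.

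**Figure D1:**
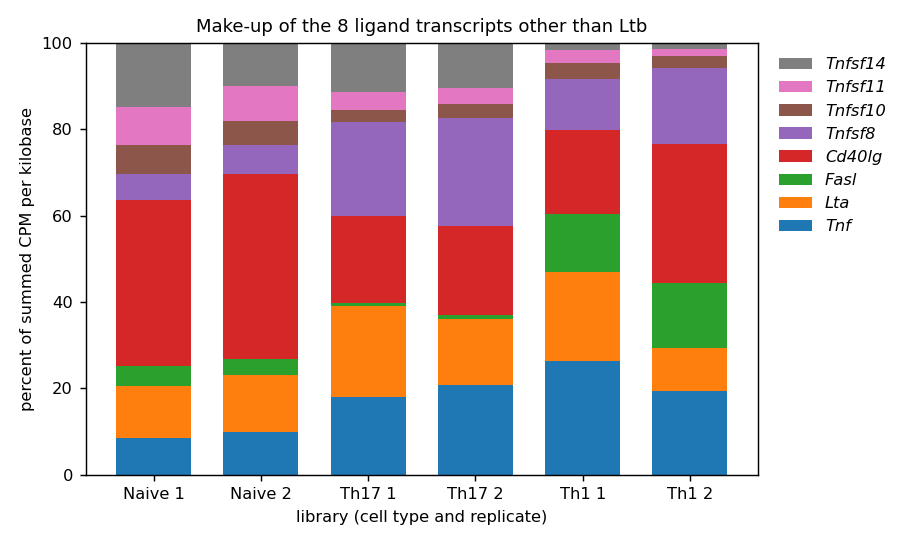
Make-up of the ligand level without *Ltb* in each of the 6 libraries. Each bar is 1 library, and its coloured segments are the percent of the summed CPM per kilobase of exon of the other 8 ligand genes. The *Cd40lg* segment is widest in Naive (mean 40.7%), the *Fasl* segment is wide only in Th1 (mean 14.2%), and the *Tnfsf14* segment is thin only in Th1 (mean 1.60%).

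Levels and changes were next followed gene by gene, on the scale of CPM, with genes called at a Benjamini-Hochberg adjusted p under 0.01 (edgeR quasi-likelihood test over all 13607 genes) and a change of more than 1 on the log2 scale. Changes are log2 fold changes with their standard errors. With 2 libraries against 2, an exact permutation test of a single gene cannot give a p below 0.333, so the calls rest on the spread estimated across genes. These are bulk samples, in which fewer cells expressing a gene and less RNA of that gene per cell cannot be told apart.

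**Figure D2:**
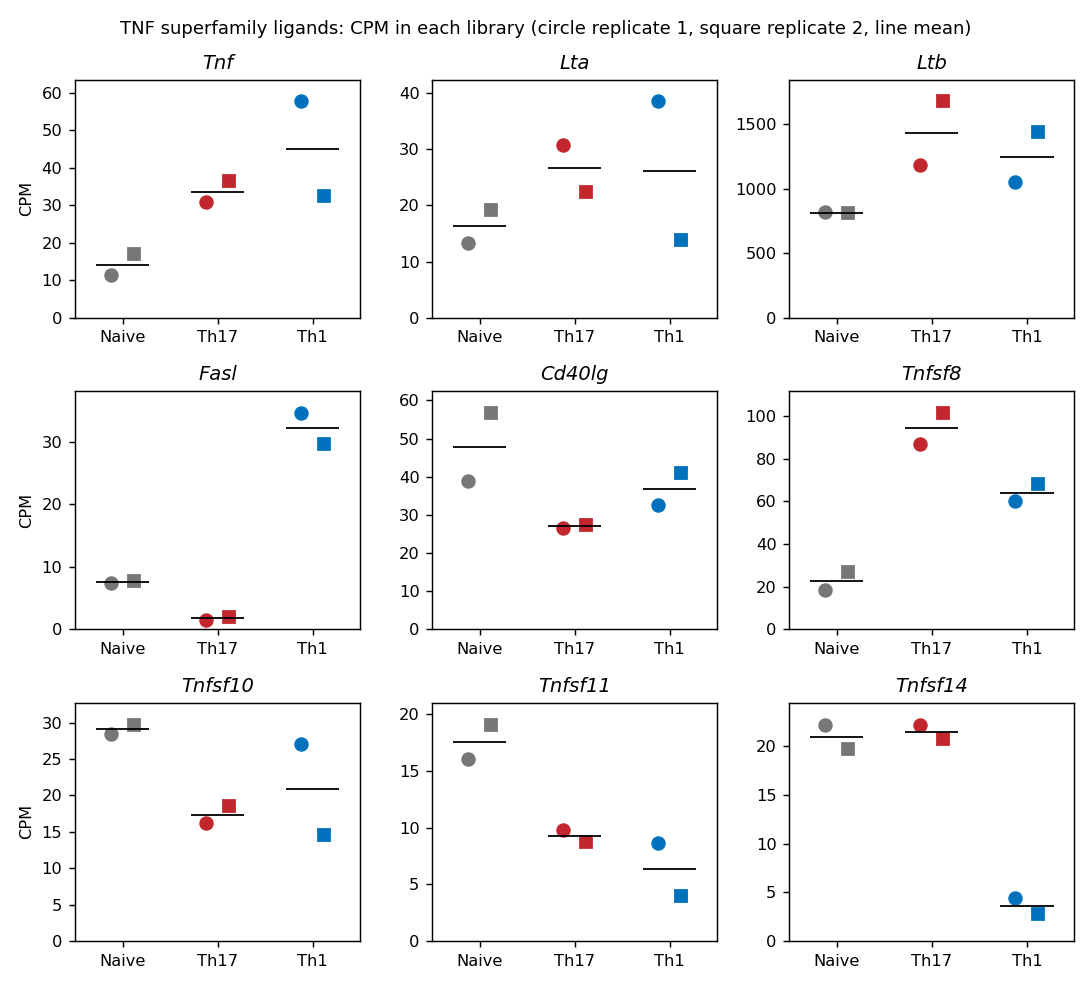
Level of each ligand gene in the 6 libraries. Each panel is 1 gene, each point is 1 library of Naive, Th17 or Th1 with CPM on a linear axis from 0, circles are replicate 1 and squares replicate 2, and the line is the mean of both. *Fasl* falls into 3 separate levels (means of 1.74 CPM in Th17, 7.54 in Naive and 32.1 in Th1), and *Tnfsf14* is low in Th1 alone (mean 3.54 CPM).

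*Fasl* encodes the ligand of the death receptor Fas, with which activated T cells eliminate Fas-bearing cells and limit their own expansion. It lies at chr1:161780689-161788495 on the minus strand of GRCm38. Its level was 7.41 and 7.68 CPM in Naive, 1.44 and 2.04 CPM in Th17, and 34.6 and 29.7 CPM in Th1. Both Th17 libraries were below both Naive libraries, and both Th1 libraries were above all others. *Fasl* fell in Th17 relative to Naive, with a log2 fold change of -2.14 ± 0.35 (SE, adjusted p = 0.0037), and rose in Th1, by 2.09 ± 0.34 (adjusted p = 0.0029). These changes share the Naive libraries. In Th1 compared directly with Th17 it was 18.8-fold higher (log2 fold change 4.23 ± 0.38, adjusted p = 2.2e-04). The direct difference was called under all 16 alternative settings, with log2 fold changes from 3.97 to 4.49 and adjusted p up to 0.0036. The change in Th17 missed the threshold without Th17 replicate 1 (adjusted p = 0.047) or Th17 replicate 2 (0.017) and in a fit of only the 4 libraries compared (0.011), with a range of 7.1e-08 to 0.047 over the alternatives, and the change in Th1 missed it without Naive replicate 1 (0.017) or Th1 replicate 1 (0.012), with a range of 7.4e-09 to 0.017. NK cells also express this gene. The NK cell marker sum was lower in Th17 (4.44 to 7.47 CPM) than in Naive (11.8 to 19.8 CPM), as *Fasl* was. Most of the Naive sum came from *Klrb1c* (17.4 and 11.2 CPM), which was called lower in Th17 (13.6-fold, edgeR adjusted p = 9.0e-04). The other NK cell genes did not share this fall. *Klri2* was higher in Th17 (2.19 and 5.26 CPM) than in Naive (0.499 and 0 CPM). *Klre1* and *Ncr1* overlapped between these groups, and *Klra8* was at 0 throughout. The marker sum was lowest in Th1 (0.190 to 1.14 CPM), where *Fasl* was highest. The part of NK cells in the *Fasl* levels was not tested.

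*Tnfsf10* encodes TRAIL, which binds death-domain receptors and can start apoptosis. It stood at 28.4 and 29.8 CPM in Naive, 16.2 and 18.5 CPM in Th17, and 27.1 and 14.6 CPM in Th1 (chr3:27317028-27342427, plus strand). The Th17 libraries were below the Naive ones, and the Th1 libraries spanned the Th17 range. No comparison was called, with log2 fold changes of -0.75 ± 0.34 in Th17 against Naive (adjusted p = 0.16), -0.47 ± 0.34 in Th1 against Naive (0.41) and 0.27 ± 0.34 in Th1 against Th17 (0.60). Without Th1 replicate 1 the last of these was -0.25.

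*Tnf*, *Lta* and *Ltb* are neighbours on chromosome 17. *Ltb* (chr17:35194439-35196320, plus strand), *Tnf* (chr17:35199381-35202007, minus strand) and *Lta* (chr17:35203165-35205351, minus strand) span 10.9 kb together, with 3.1 kb between *Ltb* and *Tnf* and 1.2 kb between *Tnf* and *Lta*. *Ltb* and *Lta* each overlap an annotated microRNA gene on the same strand (*Mir6973a* and *Mir6974*), whose reads could not be separated from theirs here.

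*Tnf* encodes the inflammatory cytokine for which the family is named. Its level was 11.4 and 17.03 CPM in Naive, 31.0 and 36.4 CPM in Th17, and 57.7 and 32.5 CPM in Th1. Every Th17 and Th1 library was above both Naive libraries, and the Th libraries overlapped each other. Neither comparison with Naive reached the call: the log2 fold change was 1.25 ± 0.36 in Th17 (adjusted p = 0.042) and 1.67 ± 0.36 in Th1 (adjusted p = 0.012). The Th17 change was called with no filter on low counts (1.24, adjusted p = 0.0035), in a range of 0.0035 to 0.22. The Th1 change was called by DESeq2 (1.68, adjusted p = 2.5e-04) and without Th1 replicate 2 (2.03, adjusted p = 0.0054), in a range of 2.2e-05 to 0.071 over the alternatives. Between Th1 and Th17 the log2 difference was 0.43 ± 0.35 (adjusted p = 0.41), and it was -0.06 without Th1 replicate 1.

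*Lta* encodes lymphotoxin alpha, which is secreted as a homotrimer or joins lymphotoxin beta on the membrane. It was at 13.4 and 19.2 CPM in Naive, 30.8 and 22.3 CPM in Th17, and 38.5 and 13.9 CPM in Th1. The Th17 libraries were above the Naive ones, while Th1 replicate 1 was the highest of all and Th1 replicate 2 lay between the Naive libraries, a 2.77-fold difference between replicates. The log2 fold changes were 0.71 ± 0.45 in Th17 against Naive (adjusted p = 0.29), 0.70 ± 0.45 in Th1 against Naive (0.35) and -0.01 ± 0.45 in Th1 against Th17 (0.99). Without Th1 replicate 1 the change in Th1 against Naive was -0.18.

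*Ltb* read 820.4 and 810.7 CPM in Naive, 1187 and 1678 CPM in Th17, and 1056 and 1438 CPM in Th1. All 4 Th libraries were above both Naive libraries, and Th17 and Th1 overlapped. The log2 fold changes were 0.81 ± 0.32 in Th17 against Naive (adjusted p = 0.11), 0.61 ± 0.32 in Th1 against Naive (0.24) and -0.20 ± 0.32 in Th1 against Th17 (0.69), none of them called. The 3 genes of the locus thus had positive estimates against Naive in both cultures, and none of the 3 was called in any comparison by this test.

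*Tnfsf8* encodes CD30 ligand, which binds CD30 on activated lymphocytes. It lies at chr4:63831308-63861347 on the minus strand. Its level was 18.2 and 26.9 CPM in Naive, 86.8 and 101 CPM in Th17, and 60.0 and 67.9 CPM in Th1. The groups did not overlap, in the order Naive, Th1, Th17. *Tnfsf8* rose 4.17-fold in Th17 (log2 fold change 2.06 ± 0.29, adjusted p = 0.0017) and 2.84-fold in Th1 (1.504 ± 0.29, adjusted p = 0.0062). The difference between Th1 and Th17 was -0.56 ± 0.28 and was not called (adjusted p = 0.19). The Th17 call was lost without Naive replicate 1 (adjusted p = 0.011, the highest over the alternatives, the lowest being 5.6e-09). The Th1 call was lost in 6 of 16 alternatives, which were scaling by library size alone (1.25, adjusted p = 0.019), the 4 libraries of that comparison alone (0.016), and leaving out Naive replicate 1 (0.042), Th17 replicate 1 (0.014), Th1 replicate 1 (0.017) or Th1 replicate 2 (0.026), in a range of 3.6e-05 to 0.042.

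*Cd40lg* encodes CD40 ligand, the signal by which helper T cells activate B cells and dendritic cells (chrX:57212143-57224042, plus strand). It was at 38.9 and 56.7 CPM in Naive, 26.7 and 27.3 CPM in Th17, and 32.6 and 40.9 CPM in Th1. The Th17 libraries were the lowest of all, and the Th1 libraries overlapped the Naive ones. The log2 fold changes were -0.82 ± 0.29 in Th17 against Naive (adjusted p = 0.083), -0.38 ± 0.29 in Th1 against Naive (0.44) and 0.45 ± 0.29 in Th1 against Th17 (0.31), and none was called.

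*Tnfsf14* encodes LIGHT, a costimulatory ligand of HVEM and of the lymphotoxin beta receptor. It lies at chr17:57189492-57194177 on the minus strand, 39.7 kb from *Cd70* and 81.7 kb from *Tnfsf9*, which encode other ligands of the family. Its level was 22.2 and 19.7 CPM in Naive, 22.2 and 20.7 CPM in Th17, and 4.36 and 2.72 CPM in Th1, the last from 282 and 43 counts. Both Th1 libraries were far below the other 4, and Naive and Th17 overlapped. *Tnfsf14* fell in Th1 relative to Naive, with a log2 fold change of -2.54 ± 0.35 (adjusted p = 0.0014), and in Th1 relative to Th17, with -2.58 ± 0.36 (adjusted p = 0.0017), where it was 5.97-fold lower. Between Th17 and Naive the log2 difference was 0.03 ± 0.33 (adjusted p = 0.95). The fall against Naive was called under all 16 alternatives, with log2 fold changes from -2.90 to -2.26 and adjusted p up to 0.0059. Against Th17 it missed the threshold without Th17 replicate 1 (adjusted p = 0.013, the highest over the alternatives, the lowest being 1.3e-11). The neutrophil and macrophage marker sums were also lowest in Th1, while between Naive and Th17, where these sums differed, the *Tnfsf14* libraries overlapped, and their part in its level was not tested.

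*Tnfsf11* encodes RANKL, which drives osteoclast formation and lymph node development. It stood at 16.1 and 19.1 CPM in Naive, 9.79 and 8.71 CPM in Th17, and 8.66 and 3.98 CPM in Th1 (chr14:78277445-78308043, minus strand). Both Naive libraries were the highest, and Th1 replicate 2 was the lowest of all. The log2 fold changes were -0.92 ± 0.41 in Th17 against Naive (adjusted p = 0.15), -1.46 ± 0.41 in Th1 against Naive (0.039) and -0.53 ± 0.41 in Th1 against Th17 (0.38). None was called by edgeR, and the Th1 change from Naive was called by DESeq2 (-1.45, adjusted p = 0.0060), in a range of 0.0049 to 0.15 over the alternatives.

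Over the 9 ligand genes, 1 was called higher (*Tnfsf8*) and 1 lower (*Fasl*) in Th17 against Naive, where 4.01% and 1.43% of all tested genes were called in these directions and 5.43% in either. In Th1 against Naive, 2 were called higher (*Fasl* and *Tnfsf8*) and 1 lower (*Tnfsf14*), against 4.64% and 2.81% of all genes (7.45% in either direction). In Th1 against Th17, 1 was called higher (*Fasl*) and 1 lower (*Tnfsf14*), against 2.70% and 2.83% (5.53% in either direction). The libraries of 4 ligand genes did not overlap and were higher in Th17 than in Naive, and those of 4 were lower, where 32.4% and 33.1% of all genes were so placed. The corresponding counts were 4 and 3 in Th1 against Naive (27.6% and 28.4% of all genes) and 2 and 3 in Th1 against Th17 (31.5% and 35.1%), so separation of the libraries by itself was common. The median log2 fold change of the ligand genes was 0.03, 0.61 and -0.01 in the 3 comparisons, beside -0.019, -0.017 and -0.027 for all tested genes.

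**Figure D3:**
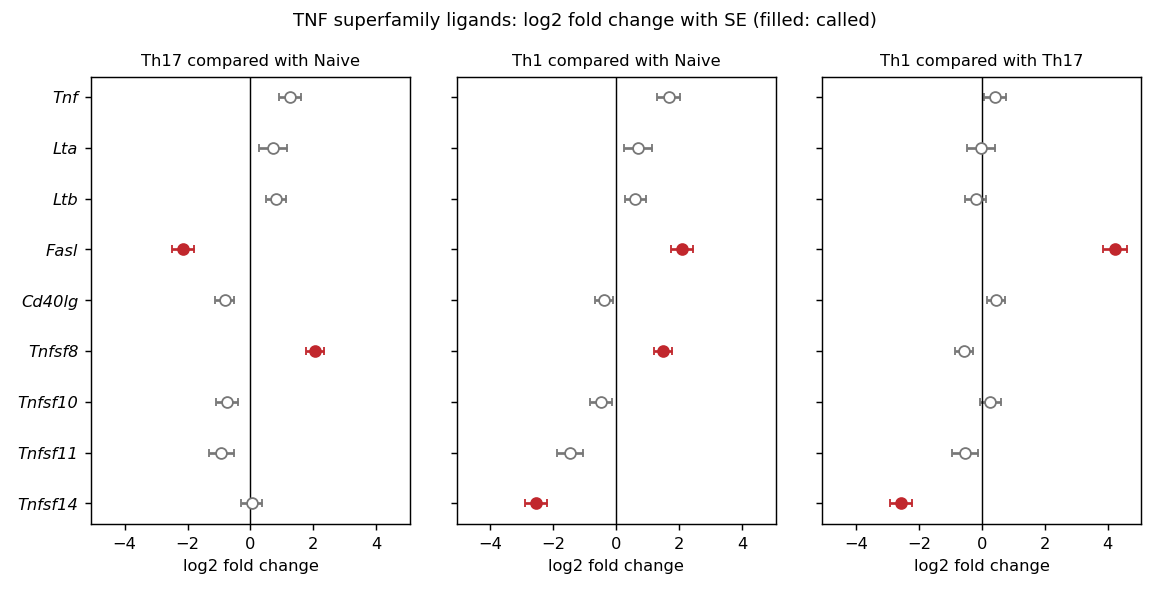
Changes of the 9 ligand genes in the 3 comparisons. Each point is the log2 fold change of 1 gene, the bar is its standard error, and filled points are called genes. *Fasl* lies at -2.14, 2.09 and 4.23 from left to right, *Tnfsf8* is filled in both comparisons with Naive, and *Tnfsf14* is filled in both comparisons of Th1.

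Of 9 other ligand genes of the family, 5 had enough counts to be tested. Over all tested genes, 5.43%, 7.45% and 5.53% were called in either direction in the 3 comparisons. Among the 5, *Tnfsf4*, which encodes OX40 ligand and lies 362.3 kb from *Fasl*, was the called one. It read 0.690 and 0.891 CPM in Naive, 2.89 and 2.72 CPM in Th17, and 19.0 and 46.8 CPM in Th1. The groups were separate, in the order Naive, Th17, Th1, although the Th1 libraries differed from each other. *Tnfsf4* was higher in Th1 than in Naive (log2 fold change 5.40 ± 0.54, adjusted p = 2.4e-04) and than in Th17 (3.54 ± 0.48, adjusted p = 0.0016), and at 1.86 ± 0.49 it was not called in Th17 against Naive (adjusted p = 0.032). The difference from Th17 missed the threshold without Th17 replicate 1 (adjusted p = 0.019) or Th17 replicate 2 (0.013), in a range of 1.1e-13 to 0.019. *Tnfsf9*, which encodes the ligand of 4-1BB, stood at 3.04 and 4.56 CPM in Naive, 11.4 and 10.7 CPM in Th17, and 8.06 and 5.31 CPM in Th1, and was not called. For this list edgeR called 0 genes in Th17 against Naive, while 3 were higher and 1 lower at an unadjusted p under 0.05 and DESeq2 called 2 higher, and without Th1 replicate 1 edgeR called 1 higher. In Th1 against Naive, leaving out Naive replicate 2 added 1 gene called lower.

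The 12 receptors of these ligands were all tested. In Th17 against Naive 4 were called higher and 0 lower, beside 4.01% and 1.43% of all tested genes. In Th1 against Naive 5 were called higher and 1 lower, beside 4.64% and 2.81%. In Th1 against Th17 1 was called higher and 3 lower, beside 2.70% and 2.83%. The median log2 fold changes of the receptors were 1.40, 1.60 and 0.21, beside -0.019, -0.017 and -0.027 for all tested genes. In the direction where edgeR called 0, no receptor was lower at an unadjusted p under 0.05 and DESeq2 also called 0. These counts moved with single libraries. The count of 4 was 2 without Naive replicate 1 or Th17 replicate 1. The count of 5 was 2 without Naive replicate 1 and 3 without Naive replicate 2, and its 1 lower gene was lost without Naive replicate 1, Th1 replicate 1 or Th1 replicate 2. In Th1 against Th17 the counts were 0 higher and 0 lower without Th17 replicate 1 or 2, while leaving out a Th1 library took the higher count to 0 and leaving out Naive replicate 2 took it to 3.

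For the ligands that changed, the paired receptors were placed as follows. *Fas*, the receptor of Fas ligand, was at 23.0 and 22.7 CPM in Naive, 58.1 and 80.2 CPM in Th17, and 45.0 and 63.0 CPM in Th1. All Th libraries were above Naive, so receptor and ligand transcripts stood in opposite directions in Th17 and in the same direction in Th1. *Fas* rose in Th17 (log2 fold change 1.60 ± 0.30, adjusted p = 0.0070) and at 1.24 ± 0.29 was not called in Th1 by edgeR (adjusted p = 0.018), while DESeq2 called it there (1.25, adjusted p = 0.0016), as did edgeR with no filter on low counts (0.0013), in a range of 0.0013 to 0.099 over the alternatives. The Th17 call was lost when any of the 4 Naive and Th17 libraries was left out (adjusted p from 0.016 to 0.064, with 2.6e-05 the lowest over the alternatives). *Tnfrsf8*, the receptor CD30, read 1.41 and 1.44 CPM in Naive, 79.8 and 32.8 CPM in Th17, and 22.5 and 8.53 CPM in Th1. It rose in Th17 (5.31 ± 0.61, adjusted p = 6.2e-04) and in Th1 (3.46 ± 0.57, adjusted p = 0.0031), as its ligand gene *Tnfsf8* did, and between Th1 and Th17 it was not called by edgeR (-1.85 ± 0.51, adjusted p = 0.037) but was called lower in Th1 by DESeq2 (-1.86, adjusted p = 0.0047), in a range of 9.9e-06 to 0.23 over the alternatives. The Th1 call was lost without Naive replicate 1 (0.022) or Naive replicate 2 (0.011) and with library size alone (0.010), in a range of 4.4e-16 to 0.022.

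LIGHT, whose gene fell in Th1, has HVEM and the lymphotoxin beta receptor as partners. *Tnfrsf14*, which encodes HVEM, was at 25.6 and 41.7 CPM in Naive, 47.0 and 42.5 CPM in Th17, and 38.2 and 38.9 CPM in Th1, and was not called in any comparison. *Ltbr*, known mainly from stromal and myeloid cells, was at 7.15 and 2.48 CPM in Naive, 5.29 and 5.88 CPM in Th17, and 0.340 and 0.126 CPM in Th1. The Th1 libraries were the lowest by a wide margin, and *Ltbr* was lower in Th1 than in Naive (log2 fold change -4.18 ± 0.69, adjusted p = 0.0032) and than in Th17 (-4.38 ± 0.69, adjusted p = 0.0034). The macrophage and neutrophil marker sums were lowest in Th1 as well, and their part in the *Ltbr* levels was not tested. Its call against Th17 was lost without Th17 replicate 1 (0.015), Th17 replicate 2 (0.011) or Th1 replicate 2 (0.016), and its call against Naive without Naive replicate 1 (0.014), Th1 replicate 1 (0.010) or Th1 replicate 2 (0.013), the alternatives ranging from 5.4e-10 to 0.016 and from 1.9e-09 to 0.014.

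*Cd40* and *Tnfrsf11b* were almost absent from Naive and Th1. *Cd40*, the receptor of CD40 ligand on B cells and antigen-presenting cells, was at 0.103 and 0.0990 CPM in Naive, 5.95 and 6.45 CPM in Th17, and 0.356 and 0 CPM in Th1. *Tnfrsf11b*, which encodes osteoprotegerin, the soluble decoy that binds RANKL, was at 0.0440 and 0 CPM in Naive, 5.72 and 7.58 CPM in Th17, and 0.139 and 0.379 CPM in Th1. Both Th17 libraries were above all others for both genes. From pooled counts of 503 against 9, the ratio of *Cd40* in Th17 to Naive was 59.5 (95% interval 31.1 to 130.8), and from 508 against 3 that of *Tnfrsf11b* was 180 (61.3 to 876), where the intervals cover counting error only. Both were called higher in Th17 than in Naive (adjusted p = 0.0027 for *Cd40* and 6.2e-04 for *Tnfrsf11b*) and lower in Th1 than in Th17 (log2 fold changes -4.73 ± 0.83, adjusted p = 0.0054, and -4.88 ± 0.72, adjusted p = 0.0024). The *Cd40* calls were lost without Th17 replicate 1 (0.016 and 0.029), Naive replicate 1 (0.019, against Naive) or Th17 replicate 2 (0.021, against Th1), and the *Tnfrsf11b* call against Th1 without Th17 replicate 1 (0.014), Th17 replicate 2 (0.014) or Th1 replicate 1 (0.017), while the lowest over the alternatives were 3.6e-12 and 2.0e-09 for *Cd40* and 5.7e-10 for *Tnfrsf11b*. Th17 was also the group in which the neutrophil, macrophage, mast cell and platelet marker sums were highest, and their part in these levels was not tested.

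*Tnfrsf1b*, which encodes TNF receptor 2, was at 61.7 and 78.1 CPM in Naive, 96.2 and 67.2 CPM in Th17, and 278 and 266 CPM in Th1. Both Th1 libraries were above the other 4, and Naive and Th17 overlapped. It rose in Th1 against Naive (log2 fold change 1.96 ± 0.29, adjusted p = 0.0018) and against Th17 (1.73 ± 0.29, adjusted p = 0.0041). *Tnfrsf11a*, which encodes RANK, read 0.161 and 0.0990 CPM in Naive, 0.505 and 0.622 CPM in Th17, and 3.51 and 3.60 CPM in Th1. Its Naive levels rested on 11 and 2 counts, the latter below the limit of 3 counts. *Tnfrsf11a* was called higher in Th1 than in Naive (4.64 ± 0.64, adjusted p = 0.0013). The TRAIL receptor gene *Tnfrsf10b* was at 2.83 and 3.81 CPM in Naive, 7.99 and 8.60 CPM in Th17, and 12.7 and 13.1 CPM in Th1 (1.96 ± 0.37 in Th1 against Naive, adjusted p = 0.0061). Of the mouse decoy receptors of TRAIL, *Tnfrsf23* was called higher in Th1 than in Naive (3.47 ± 0.49, adjusted p = 0.0015) and *Tnfrsf22* was not called. These 2 genes are neighbours that overlap an antisense gene, so their counts are uncertain. The *Tnfrsf10b* call was lost without any 1 of the 6 libraries (adjusted p from 0.011 to 0.034, the lowest over the alternatives being 7.0e-07), with library size alone (0.016) and with only the 4 libraries compared (0.016), and the *Tnfrsf1b* call against Th17 without any Th17 or Th1 library (0.015 to 0.051) or with library size alone (0.015), and that against Naive without Naive replicate 1 (0.015), the lowest over the alternatives being 4.8e-07 and 5.1e-09.

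**Figure D4:**
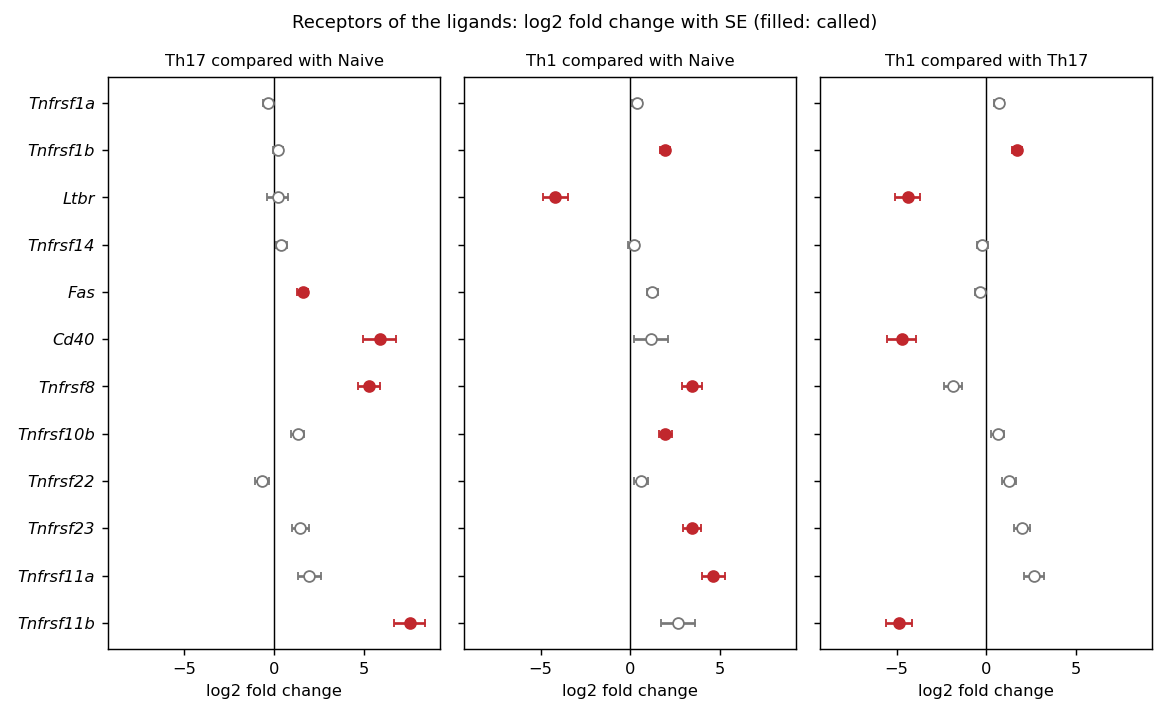
Changes of the 12 receptor genes in the 3 comparisons. Each point is the log2 fold change of 1 gene, the bar is its standard error, and filled points are called genes. *Tnfrsf8* is filled in both comparisons with Naive (5.31 and 3.46), and *Ltbr*, *Cd40* and *Tnfrsf11b* are filled on the negative side in Th1 against Th17 (-4.38, -4.73 and -4.88).

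Of 21 signalling genes below the receptors, *Traf1*, an adaptor of TNF receptor 2 and CD30, was the called one. It stood at 62.1 and 82.4 CPM in Naive, 139.5 and 143 CPM in Th17, and 164 and 197 CPM in Th1, and it rose in Th1 against Naive (log2 fold change 1.32 ± 0.27, adjusted p = 0.0089). That call was lost without any 1 of the 6 libraries (adjusted p from 0.014 to 0.062) and with library size alone (0.028), at least 10 counts in every library (0.011), only the 4 libraries compared (0.020) or thinning to the smallest library (0.011), and the lowest over the alternatives was 9.0e-05. *Rbck1*, a subunit of the linear ubiquitin ligase and the most abundant of the list by CPM, was not called, with mean levels of 244.8 CPM in Naive libraries, 154 in Th17 libraries and 332 in Th1 libraries. In Th17 against Naive and in Th1 against Th17 edgeR called 0 of the 21, while 3 higher with 3 lower and 3 higher with 2 lower had an unadjusted p under 0.05, and DESeq2 called 1 higher with 1 lower and 2 higher with 1 lower. The list medians were -0.16, 0.15 and 0.17 in the 3 comparisons, beside -0.019, -0.017 and -0.027 for all tested genes. Of all tested genes, 5.43%, 7.45% and 5.53% were called in either direction.

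Of 7 genes that act in ligand shedding, *Timp3*, an inhibitor of the sheddase ADAM17, was called higher in Th17 than in Naive (0.763 and 0 CPM in Naive, 26.3 and 26.7 CPM in Th17, and 9.62 and 2.59 CPM in Th1, adjusted p = 0.0041). The call was lost without Th17 replicate 1 (adjusted p = 0.016, the highest over the alternatives, the lowest being 5.3e-27). The sheddase gene *Adam10* was not called, with mean levels of 164 CPM in Naive libraries, 167 in Th17 libraries and 198 in Th1 libraries. Against Naive and Th17, edgeR and DESeq2 each called 0 of the 7 in Th1, where 3 higher with 0 lower and 2 higher with 1 lower had an unadjusted p under 0.05, and edgeR called 1 higher against Naive without Naive replicate 1 or Th1 replicate 2. The list medians were 0.15, 0.28 and 0.25, beside -0.019, -0.017 and -0.027 for all tested genes. Of all tested genes, 5.43%, 7.45% and 5.53% were called in either direction.

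Of 10 RNA-binding proteins that act on cytokine messengers, the paralogs *Zfp36l2* and *Zfp36l1*, which bind AU-rich elements and promote decay, were called. *Zfp36l2* was at 1085 and 1626 CPM in Naive, 397 and 311 CPM in Th17, and 548 and 987 CPM in Th1, and it fell in Th17 against Naive (log2 fold change -1.94 ± 0.38, adjusted p = 0.0094). *Zfp36l1* was at 227 and 430 CPM in Naive, 194 and 123 CPM in Th17, and 549 and 768 CPM in Th1, and it was higher in Th1 than in Th17 (2.05 ± 0.39, adjusted p = 0.0083). For both genes Th17 was the lowest group without overlap. The *Zfp36l2* call was lost without Naive replicate 2 (0.031), Th17 replicate 1 (0.045) or Th17 replicate 2 (0.084), with library size alone (0.013), at least 10 counts in every library (0.013) or thinning (0.010), and the *Zfp36l1* call without any Th17 or Th1 library (0.012 to 0.075), with library size alone (0.023) or at least 10 counts in every library (0.011), the lowest over the alternatives being 2.3e-06 and 7.1e-08. In Th1 against Naive edgeR called 0 of the 10, with 2 higher and 0 lower at an unadjusted p under 0.05 and 1 higher by DESeq2. The list medians were -0.67, -0.01 and 0.32, beside -0.019, -0.017 and -0.027 for all tested genes. Of all tested genes, 5.43%, 7.45% and 5.53% were called in either direction.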

How the data were processed

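RNA was measured by poly(A)-primed Smart-seq2 RNA-Seq in 6 libraries. Per the labels and the methods, the authors mapped reads to mm10 with HISAT2 2.2.1, removed duplicates and counted reads per gene with HTSeq 0.13.5, and deposited whole-number counts for each library. Their processing notes also list StringTie 2.1.7 and DESeq2 1.34.0. The strand setting and the annotation are not settled by the sources used here, so reads of overlapping genes may be mixed.

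The tests used edgeR 4.0.16 (R 4.3.3, limma 3.58.1) on the deposited counts. Of 24223 genes, the 13607 passing filterByExpr by cell type were fitted with TMM factors and cell type as the only term, without a replicate block, using glmQLFit and glmQLFTest. A call needed a log2 fold change beyond 1 in either direction with a p under 0.01 after Benjamini-Hochberg adjustment. SE is the absolute log2 fold change divided by the square root of F. CPM are TMM-scaled, with a prior count of 2 on the log2 scale. The fit was tested on simulated data.

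The ligand genes and the other lists were written by hand with earlier results of these data known. Named genes are the ligands, up to 3 called members of each list per direction and comparison (otherwise the most abundant one), and the 2 genes nearest in pattern to each ligand. Further receptors, *Tnfsf9* and single marker genes were named after their values were seen. Exon lengths and coordinates are from GENCODE vM21 on GRCm38, the assembly of mm10, and promoters from RefSeq. Alternatives were DESeq2 1.42.0, RLE factors, library size alone, no filter, a minimum of 10 counts per library, a replicate block (edgeR, DESeq2), a fit of the 4 libraries compared, counts thinned to the smallest total, a threshold of 0.05, and leaving out each library.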

Additional observations from a re-analysis of the deposited data

Results flagged for a closer look

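The changes from Naive of 2 ligand genes differed between the Th1 and Th17 cultures by a test of the difference itself, which is the comparison of Th1 with Th17 since both changes share the Naive libraries. For *Fasl* the difference of the changes was 4.23 on the log2 scale (Th1 minus Th17, edgeR adjusted p = 2.2e-04), with a fall in Th17 and a rise in Th1. For *Tnfsf14* it was -2.58 (adjusted p = 0.0017), with a fall in Th1 and an estimate of 0.03 in Th17. Both Th1 libraries were above both Th17 libraries for *Fasl* and below them for *Tnfsf14*. The groups held 2 libraries each, too few to look for single outlying samples.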

How the results depend on the processing

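Each of the 27 ligand changes was read under 16 alternatives. Among these, the adjusted p under 0.05 is the main fit at a looser threshold, so it cannot lose a call or turn a direction. Of the 432 values, 397 kept direction and side of the threshold, 13 lost the call, 12 gained it and 10 turned direction. None of the 10 was called. In Th17 against Naive *Tnfsf14* was -0.016 after thinning to the smallest library, and leaving out 1 library gave -0.059 (without Naive replicate 2) to 0.12, also turning it without Th17 replicate 1 (-0.010). In Th1 against Naive *Lta* ranged from -0.18 (without Th1 replicate 1) to 1.25 when 1 library was left out. In Th1 against Th17 the ranges were -0.056 (without Th1 replicate 1) to 0.79 for *Tnf*, -0.25 (without Th1 replicate 1) to 0.66 for *Tnfsf10*, -0.44 to 0.078 (without Th17 replicate 2) for *Ltb*, and -0.94 to 0.54 (without Th1 replicate 2) for *Lta*, which was also 0.23 without Th17 replicate 1 and 0.0068 with no filter on low counts. Among receptors that were not called, leaving out 1 library gave -0.049 (without Th17 replicate 1) to 0.46 for *Tnfrsf1b* and -0.37 (without Naive replicate 2) to 1.17 for *Ltbr* in Th17 against Naive, and -0.12 (without Naive replicate 1) to 0.59 for *Tnfrsf14* and -4.95 (without Th1 replicate 1, where Th1 is left at 0 counts) to 1.79 for *Cd40* in Th1 against Naive, where *Tnfrsf14* was -0.057 with library size alone and *Cd40* -0.33 after thinning. The cause was not tested. Counts of called ligand genes in Th17 against Naive were 1 higher and 1 lower: 2 higher with no filter or an adjusted p under 0.05, 0 lower with only the 4 libraries compared, and 0 to 1 in each direction when 1 library was left out. In Th1 against Naive they were 2 higher and 1 lower: 3 higher by DESeq2, with no filter, with an adjusted p under 0.05 or with the replicate block in either tool, 1 higher with library size alone or only the 4 libraries compared, 0 to 2 higher when 1 library was left out, and 2 lower by DESeq2, with no filter or with an adjusted p under 0.05. In Th1 against Th17 the 1 lower became 0 to 1 when 1 library was left out. Library size alone moved the median of all genes to -0.26 in Th1 against Naive and -0.24 in Th1 against Th17. Over the alternatives that left out no replicate, receptors called higher ranged from 2 to 5, 3 to 6 and 0 to 3, and those called lower in Th1 against Th17 from 0 to 4. Deviations from the group means were correlated between groups by replicate number, across 13607 genes. The correlation was -0.23 for Naive with Th17, 0.17 for Naive with Th1 and 0.08 for Th17 with Th1. With 2 libraries a group, and replicate 1 the deeper in each, these values cannot show whether equally numbered samples were paired. With the replicate block, *Tnf* in Th1 against Naive was called by edgeR (1.67, adjusted p = 0.0065), as was *Tnfrsf8* as lower in Th1 than in Th17 (-1.87, adjusted p = 0.0039, and 9.5e-05 with the block in DESeq2), and with the block in DESeq2 2 ligand genes were called lower in Th1 against Naive. In edgeR the block raised the calls over all genes in Th17 against Naive from 739 to 1035. The rise was from 1014 to 1402 in Th1 against Naive and from 752 to 1041 in Th1 against Th17. In DESeq2 the block lowered the calls, from 1738 to 1517, 1928 to 1796 and 1824 to 1635 in the same order. Where leaving out a library left 1 in a group, that library was assumed to vary like the others. Estimates under 2-fold, such as those of *Tnfsf10* (1.21-fold to 1.68-fold) and *Cd40lg* (1.30-fold to 1.77-fold), could not be called at any p, since a call needed a larger change. Neither gene had an adjusted p under 0.01 by edgeR in any comparison. The *Cd40lg* libraries did not overlap between Th17 and Naive or between Th1 and Th17. Those of *Tnfsf10* did not overlap between Naive and either Th group. Th1 replicate 2, which held 18347752 counts, gave *Tnfsf14* 43 counts.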

Other observations

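Genes outside the lists were ranked by how closely their log2 CPM over the 6 libraries, centred on each gene's mean, followed each ligand gene. The 13042 genes searched were measured in the same libraries, so depth and group are shared by all points and likeness is given as a description only. *Cd40lg* had the closest neighbour of all, *Lbh* (root mean square difference 0.020 log2 units, mean levels 405.6 CPM in Naive, 224.0 in Th17 and 311 in Th1), followed by *Ly9* (0.068), an adhesion receptor of the SLAM family. *Ltb* was nearest to *Ntan1* (0.045) and *Erlec1* (0.086), and *Tnfsf10* to *Smc4* (0.092), a condensin subunit, and *Jade1* (0.11).

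The genes nearest to *Fasl* were *4921525O09Rik* (0.25) and *Slamf7* (0.26). *Slamf7*, another SLAM family receptor of lymphocytes, averaged 9.81 CPM in Naive, 3.11 in Th17 and 41.3 in Th1. *Tnfsf14* was nearest to *Gm16702* (0.19) and *Naip5* (0.20), an inflammasome sensor with 2.85 CPM in Naive, 2.48 in Th17 and 0.507 in Th1. *Tnf* was nearest to *Nrip3* (0.14) and *Rbpj* (0.17), the DNA-binding factor of Notch signalling with 46.8, 112 and 151 CPM in the same order. *Tnfsf8* was nearest to *Apoa2* (0.11) and *Ebi3* (0.14), the latter a subunit of IL-27 and IL-35 with 1.153, 4.32 and 3.39 CPM. *Lta* was nearest to *Slc4a8* (0.18) and *Cerkl* (0.20), and *Tnfsf11* to *Snora5c* and *Nrg4* (both 0.11). Of the nearest genes named here, *Gm16702*, *Nrip3*, *Apoa2* and *Snora5c* were under 1 CPM in every group mean.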
